A study of Callithrix jacchus with 8 samples.

Results

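Among 32338 Ensembl gene identifiers (IDs) of the common marmoset monkey, 58 were switched on or off in a single one of the ES cell lines DPZcjESC1-4. The level of an ID was its CPM, the counts per 1000000 counts on genes of the same library, and the value of a line was the mean CPM of its 2 libraries. An ID was called on in a line if its value there was at least 3 CPM and under 1 CPM in each of the other 3 lines, and off in a line if it was under 1 CPM there and at least 3 CPM in each of the other 3. By this rule 44 IDs were on in one line (DPZcjESC1 had 26 of them, DPZcjESC2 3, DPZcjESC3 4 and DPZcjESC4 11) and 14 were off in one line (4, 4, 5 and 1, in the same order). The number off depends on single libraries, and without 1 library it was 31 in DPZcjESC1 (without passage 51), 13 in DPZcjESC2 (without passage 36) and 24 in DPZcjESC3 (without passage 41). The rule reads all 8 libraries, so that the levels of these IDs are a description, and no test of one line against the others is used as support for them.

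The 4 lines had each been established from 1 preimplantation embryo, so that each genotype is represented by 1 line. DPZcjESC1 was male and came from an early morula, DPZcjESC2 was female and came from an early morula, DPZcjESC3 was female and came from a compacted morula, and DPZcjESC4 was male and came from an expanded blastocyst. DPZcjESC1 and DPZcjESC2 carry extra chromosomes, more of them in DPZcjESC1, while DPZcjESC3 and DPZcjESC4 are euploid. The paper lists the same embryo donor for DPZcjESC1 and DPZcjESC2, and a different donor for each of the other lines. All cells were grown on gamma-irradiated mouse embryonic fibroblasts as feeder cells, and RNA came from DPZcjESC1 at passages 46 and 51, from DPZcjESC2 at 36 and 37, from DPZcjESC3 at 37 and 41, and from DPZcjESC4 at 30 and 33. Sex, karyotype and embryonic stage each differ between lines that also differ in genotype, and with 1 line per embryo these cannot be told apart. The methods call the libraries of a line independent biological replicates, and the labels distinguish them by passage.

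ES cells are kept in the undifferentiated state by a network of transcription factors around POU5F1, SOX2 and NANOG, and genes of specialised cell types are mostly silent or very weakly transcribed. Cultures on feeder cells nevertheless usually hold some cells that have begun to differentiate, and in RNA from whole cultures such cells add the transcripts of their own cell type. In these bulk libraries, fewer cells of a type and less RNA per cell cannot be told apart.

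The deposited counts on genes summed to between 10615123 and 12885444 per library, so that 1 CPM stood for 10.6 to 12.9 counts and 3 CPM for 31.8 to 38.7. The exact 95% Poisson interval, which covers counting error only, extended over the libraries from 0.493 to 1.85 CPM around the limit of 1 and from 2.04 to 4.26 CPM around the limit of 3. The pluripotency markers were present in every library, with POU5F1 at 311 to 480 CPM, SOX2 at 34.0 to 137 CPM and NANOG at 34.9 to 164 CPM. FGF4 and NR0B1 were the exceptions among the 10 markers found, at 0 to 0.253 CPM and 0 to 2.45 CPM. None of these markers was switched.

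A gene name could be assigned to 25 of the 58 IDs (20 of those on and 5 of those off), which is 43.1%, against 39.6% of all 32338 IDs. The other 33 are given by ID where they are named. Of the 25 named genes, 24 had exactly 1 location by name in the RefSeq gene table of another marmoset assembly. Among these 24, only 1 pair was found within 20 genes of each other. These were the protease inhibitor genes SPINK1 and SPINK5, with 6 genes between them. The remaining named gene and the 33 IDs without a name were not placed, so that further neighbours can have been missed.

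**Figure D1:**
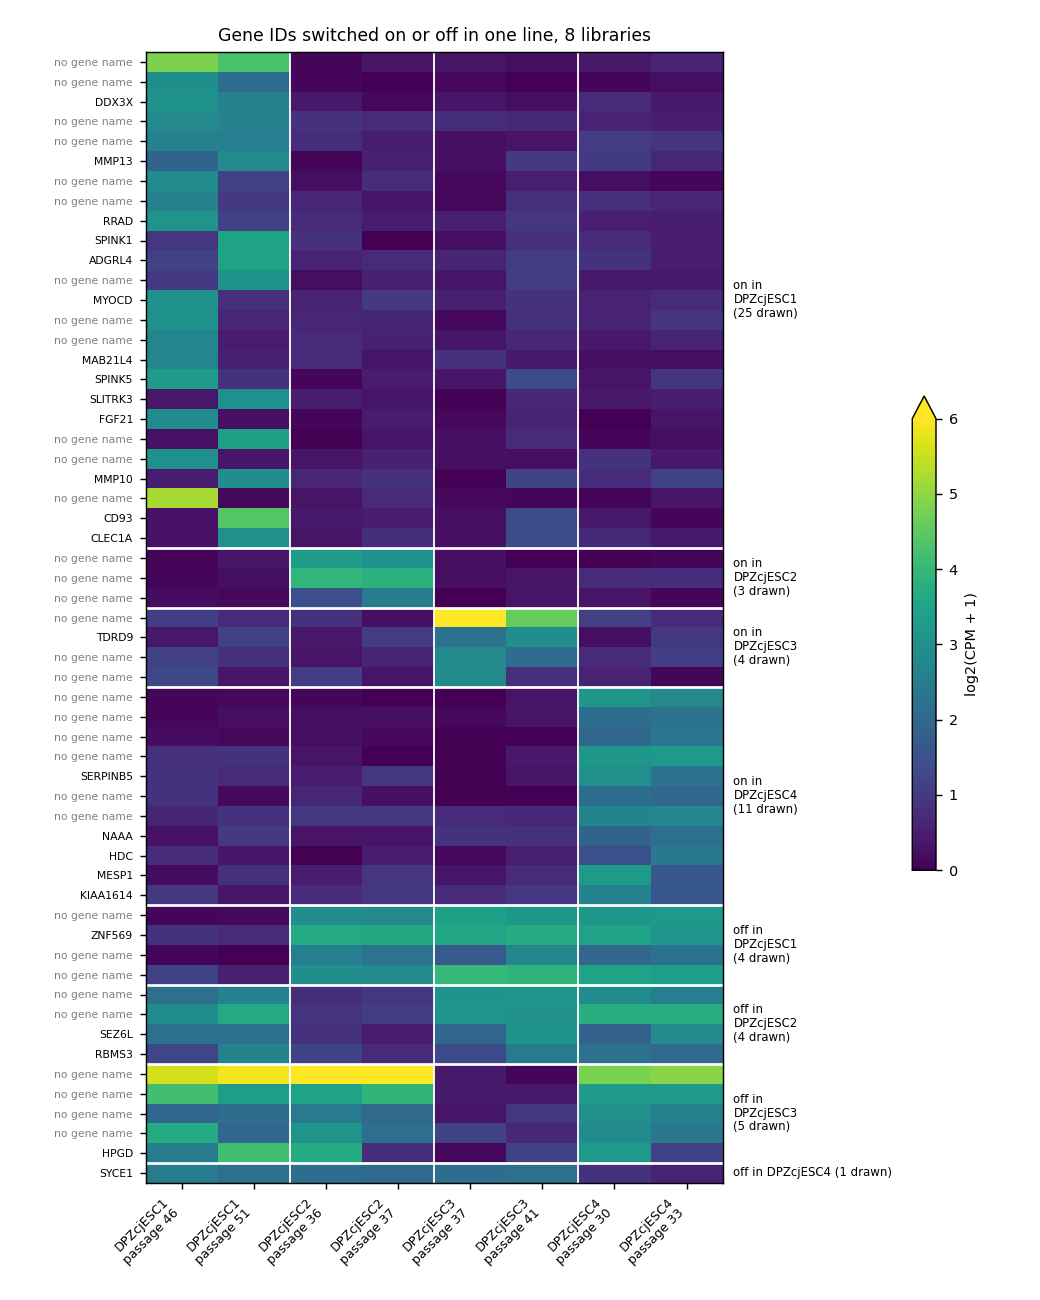
Level of 57 of the 58 switched IDs in 8 libraries, as log2(CPM + 1), with 1 strip per ID and 1 column per library. Colours reach their end at 6, and IDs are grouped by direction and line, with those past the limits in all 8 libraries first in each group. In the large group on in DPZcjESC1 most IDs are bright in 1 of the 2 columns of that line, whereas most IDs on in DPZcjESC2 and DPZcjESC4 are bright in both.

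Whether both passages carried the switch was examined first. In 26 of 58 IDs both libraries of the switched line were past its limit, in 17 only the earlier passage was and in 15 only the later one. In 19 IDs all 8 libraries were past their limits, 12 of them on and 7 off. The lines differed in these numbers. All 8 libraries were past their limits in 6 of the 11 IDs on in DPZcjESC4 and in 2 of the 3 on in DPZcjESC2, but in 4 of the 26 on in DPZcjESC1 and in 0 of the 4 on in DPZcjESC3. Of the IDs that were off, this held for 2 of 4 in DPZcjESC1, 1 of 4 in DPZcjESC2, 3 of 5 in DPZcjESC3 and 1 of 1 in DPZcjESC4.

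**Figure D2:**
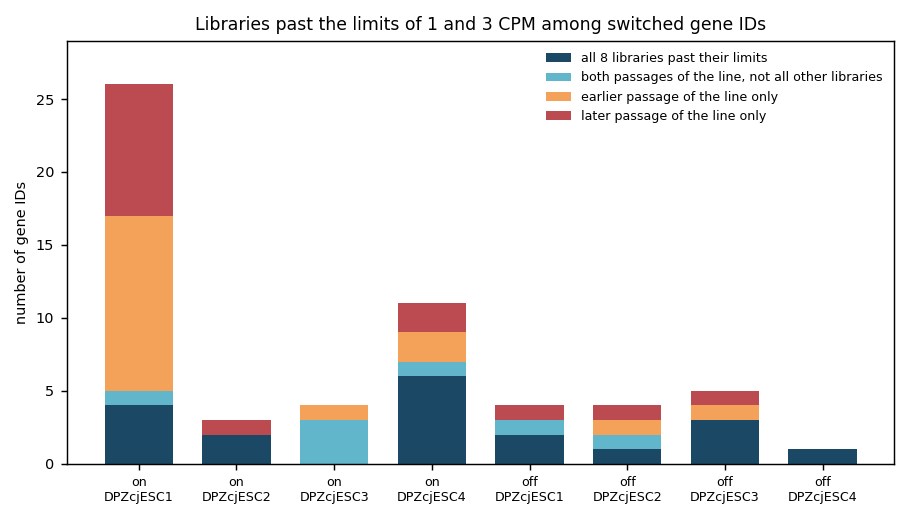
Number of switched IDs (vertical axis) for each direction and line, divided by the libraries that were past the limits of 1 and 3 CPM. Of the 26 IDs on in DPZcjESC1, 12 were at 3 CPM or more at passage 46 only and 9 at passage 51 only.

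Since the mean of both passages chose the IDs, the rule was also applied to 1 library per line and read in the other 4 libraries, which had not been used for the choice. Of 46 IDs on in one line in the earlier passages, 12 met the rule again in the later ones (26.1%), and 0.313% of all IDs with at least 3 CPM in any of the later libraries did so. In the other order 12 of 42 met it again (28.6%, against 0.347% of all IDs). Of 36 IDs off in one line in the earlier passages, 7 met the rule again in the later ones (19.4%, against 0.201%), and in the other order 7 of 27 did (25.9%, against 0.272%). The switched line kept the highest level of the 4 lines in 28 of the 46 IDs chosen as on and the lowest in 17 of the 36 chosen as off. Most of the IDs chosen in 1 library per line were thus not found again. The share of all IDs includes those at 3 CPM or more in every line, which cannot meet the rule. No conclusion is therefore drawn from the larger share among the chosen IDs.

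The lines with the most IDs on were also read separately. For IDs on in DPZcjESC4, 6 of 16 chosen in the earlier and 6 of 10 chosen in the later passages met the rule again, and for DPZcjESC1 it was 4 of 25 in both orders. The highest level stayed with DPZcjESC4 in 13 of 16 and 10 of 10, and with DPZcjESC1 in 11 of 25 and 10 of 25. For IDs off in DPZcjESC3, 3 of 21 chosen at passage 37 and 3 of 5 chosen at passage 41 met the rule again. These shares were not tested against each other.

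DPZcjESC1 had the most switched IDs, and 4 of the 26 that were on in it were past the limits in all 8 libraries. ENSCJAG00000022367, which has no gene name, was measured at 27.3 CPM at passage 46 and 18.5 CPM at passage 51, with 0.0798 and 0.275 CPM in DPZcjESC2, 0.269 and 0.168 CPM in DPZcjESC3 and 0.338 and 0.481 CPM in DPZcjESC4. Its mean was 22.9 ± 6.26 CPM (SD, n = 2) in DPZcjESC1 and 0.268 ± 0.138 CPM (SD, n = 6) in the other libraries, and the lower DPZcjESC1 library exceeded the highest other library 38.4-fold. Both libraries of the line were therefore far above every other library.

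DDX3X, named for an X-linked RNA helicase of the DEAD-box family, was at 7.37 and 5.28 CPM in DPZcjESC1. The other libraries held 0.319 and 0.0915 CPM in DPZcjESC2, 0.269 and 0.168 CPM in DPZcjESC3 and 0.676 and 0.320 CPM in DPZcjESC4. The means were 6.32 ± 1.48 CPM (SD, n = 2 libraries) and 0.308 ± 0.202 CPM (SD, n = 6 libraries), with 7.80-fold between the nearest libraries. For IDs past the limits in all 8 libraries, groups without overlap are set by the rule. DDX3X has close copies elsewhere in primate genomes, and reads that aligned to several places were not counted, so that the count on this ID, and which copy it stands for, are uncertain. DPZcjESC4, the other male line, was below 1 CPM like the female lines.

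ENSCJAG00000032765 was at 6.91 and 3.39 CPM in DPZcjESC1 and between 0 and 0.160 CPM elsewhere, where no library had more than 2 counts. With those libraries set to 3 counts, its lower DPZcjESC1 library was at least 12.4-fold higher than the others. The fourth of these IDs, without a gene name as well, was at 6.13 and 5.28 CPM in DPZcjESC1 and between 0.400 and 0.798 CPM elsewhere.

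The other 22 IDs on in DPZcjESC1 were not past the limits in all 8 libraries, and in 21 of them 1 passage alone carried the switch. The passages of DPZcjESC1 were at least 2-fold apart in 22 of the 26 IDs, beside 32.6% of all IDs with 3 to 25 CPM in this line. The same count was 1 of 3 in DPZcjESC2 (10.6% of all such IDs), 1 of 3 in DPZcjESC3 (18.3%, leaving out 1 ID above 25 CPM) and 3 of 11 in DPZcjESC4 (7.41%). The rule admits an ID that is high in 1 library only. A pattern of at least 3 CPM in a single library and under 1 CPM in the other 7 was found for 11 IDs at passage 46 and 9 at passage 51 of this line, for 1 ID at passage 36 of DPZcjESC2 and for 0 in the other 5 libraries. Of these 21 IDs, 6 and 3 of the DPZcjESC1 groups belong to the switched IDs, while the others had too low a mean. The reverse pattern, under 1 CPM in a single library and at least 3 CPM in the other 7, was found for 5 IDs at passage 37 of DPZcjESC3, 4 at passage 46 and 1 at passage 51 of DPZcjESC1, 1 at passage 37 of DPZcjESC2 and 0 in the other 4 libraries.

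**Figure D3:**
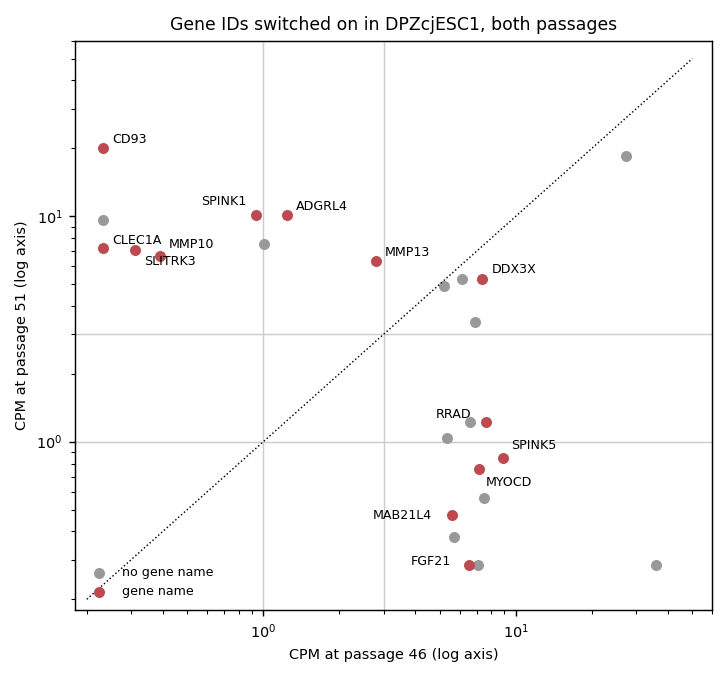
CPM at passage 51 (vertical, log axis) against CPM at passage 46 (horizontal, log axis) of 25 of the 26 IDs on in DPZcjESC1, with genes that have a name in red. Values under 3 counts are drawn at 3 counts, grey lines mark 1 and 3 CPM, and the dotted diagonal marks equal levels. The IDs fall into a group of 11 at the lower right, a group of 9 at the upper left and 5 IDs near the diagonal.

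At passage 46 the 12 IDs included 6 named genes, which have their best known functions in epithelium, muscle and metabolism. Values of 5 of them follow. SPINK5, an inhibitor of epidermal proteases, was at 8.92 and 0.848 CPM in DPZcjESC1, and at 0.0798 to 1.60 CPM in the others. MAB21L4, a member of the MAB21-like family, was at 5.59 and 0.471 CPM, and at 0.160 to 0.808 CPM in the others.

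MYOCD, a coactivator of serum response factor in heart and smooth muscle, was at 7.14 CPM at passage 46 and 0.754 CPM at passage 51, with 0.449 to 1.01 CPM in the other lines. RRAD, a small GTPase that restrains voltage-gated calcium channels, was at 7.61 and 1.22 CPM, with 0.366 to 0.926 CPM in the other lines. FGF21, a metabolic hormone of the fibroblast growth factor family, was at 6.52 and 0.188 CPM, with 0 to 0.505 CPM in the other lines. In each of these 5 genes passage 46 of DPZcjESC1 was far above the other 7 libraries. The highest value of the group was that of ENSCJAG00000013945, which has no gene name, at 35.9 CPM against 0.0942 CPM at passage 51 and 0.0842 to 0.641 CPM elsewhere.

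Some markers of other cell types were also highest at passage 46 of DPZcjESC1. The summed level of the 4 neuroectoderm markers found was 1137 CPM there and 323 to 607 CPM in the other libraries, almost all of it from the intermediate filament NES. The other 3 were low there, with MAP2 at 3.41 CPM (5.77 to 14.1 CPM elsewhere), OTX2 at 6.91 CPM (3.72 to 29.5 CPM elsewhere) and PAX6 at 1.47 CPM (1.22 to 2.65 CPM elsewhere). Of 8 genes of stratified epithelium found, 4 were highest at passage 46 (GRHL3, LAMB3, DSG3 and KRT14), while the summed level of that list, 1125 CPM, was within its range of 706 to 1748 CPM over all libraries. KRT14, the keratin of basal epidermis, was at 2.72 CPM there and at 0.0801 to 0.641 CPM in the other libraries, and TP63 was at 0.0798 to 0.659 CPM in all 8. The part of such cells in the levels of the switched genes was not tested.

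At passage 51 the 9 IDs included 7 named genes, among them 3 of vascular endothelium. CD93, a transmembrane receptor of endothelial and myeloid cells, was at 0.233 CPM at passage 46 and 20.1 CPM at passage 51. It was at 0.319 and 0.366 CPM in DPZcjESC2, 0.180 and 1.60 CPM in DPZcjESC3, and 0.338 and 0.0801 CPM in DPZcjESC4. ADGRL4, an adhesion receptor that is abundant in endothelium, was at 1.24 and 10.1 CPM in DPZcjESC1 and at 0.400 to 1.09 CPM in the others. CLEC1A, a C-type lectin-like receptor, was at 0.233 and 7.25 CPM in DPZcjESC1 and at 0.180 to 1.60 CPM in the others. All 3 genes were highest at passage 51 of DPZcjESC1 and next, outside this line, at passage 41 of DPZcjESC3.

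The remaining named genes of this group belong to other functions. MMP10 and MMP13, secreted proteases of the extracellular matrix, were at 0.388 and 6.69 CPM and at 2.79 and 6.31 CPM at passages 46 and 51. In the other lines MMP10 was at 0 to 1.35 CPM and MMP13 at 0.0798 to 1.01 CPM. MMP13 was thus above all other lines in both passages, although it reached 3 CPM in the later one only. SPINK1, a secreted trypsin inhibitor, was at 0.931 and 10.2 CPM, with 0 to 0.798 CPM in the other lines. SLITRK3, an adhesion protein of synapses, was at 0.310 and 7.07 CPM, with 0 to 0.590 CPM in the other lines.

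All 9 IDs were also higher at passage 41 than at passage 37 of DPZcjESC3, although their values in that line stayed under 1 CPM on average. Of all IDs under 1 CPM in DPZcjESC3 with at least 3 counts in it, 60.5% were higher at passage 41. The median of the 9 was 1.09 CPM at passage 41 and 0.180 CPM at passage 37, and in 7 of 9 passage 41 of DPZcjESC3 held the highest level of the 6 libraries of other lines. No share of all IDs was counted beside this last number, and nothing is read from it. Passage 41 of DPZcjESC3 had the most IDs with a count of all libraries (20569). In DPZcjESC2, 7 of 9 were higher at the later passage (45.9% of all such IDs), and in DPZcjESC4 3 of 9 (42.4%). The levels compared are near the limit that a few counts allow, and this reading was chosen after the values were seen. Of the 12 IDs of passage 46, 6, 4 and 6 were higher at the earlier passage of DPZcjESC2, DPZcjESC3 and DPZcjESC4.

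A list of endothelial markers, drawn up after the names of these IDs had been seen and holding none of them, followed the same libraries. Of 14 markers found, 12 were highest at passage 51 of DPZcjESC1, and no share of all IDs was counted beside this. The exceptions were ENG, at 34.6 CPM there and 39.0 CPM at passage 41 of DPZcjESC3, and CLDN5, at 1.60 CPM there and 1.01 to 2.40 CPM elsewhere. The summed level was 1515 CPM at passage 51, 369 CPM at passage 46, 689 CPM at passage 41 of DPZcjESC3 and 270 to 644 CPM in the others. PECAM1 was a large part of each sum, at 535 CPM at passage 51 and 191 to 420 CPM elsewhere. CDH5, the cadherin of endothelial junctions, was at 229 CPM at passage 51 and 3.49 CPM at passage 46 of DPZcjESC1, and at 20.6 CPM at passage 41 of DPZcjESC3. It was at 0.846 to 2.48 CPM in the other 5 libraries. CD34 was at 165 CPM and TIE1, an endothelial receptor kinase, at 62.2 CPM at passage 51, against 0.732 to 9.35 CPM and 0.549 to 9.26 CPM in all others. SOX18 was at 0 in 3 libraries and ERG in 1. The summed level of 6 fibroblast or feeder markers was also highest at passage 51 of DPZcjESC1 (5858 CPM, with 1098 to 4643 CPM elsewhere), but the single markers were divided. COL3A1, COL1A2 and POSTN were highest there, and COL1A1 and PDGFRB at passage 41 of DPZcjESC3. DCN was highest at passage 46 of DPZcjESC1, with 898 CPM against 201 CPM at passage 51. Reads were aligned to the marmoset assembly, and the part of mouse feeder cells in these marker levels was not tested. The part of endothelial cells or fibroblasts in the levels of the 9 IDs was not tested either.

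**Figure D4:**
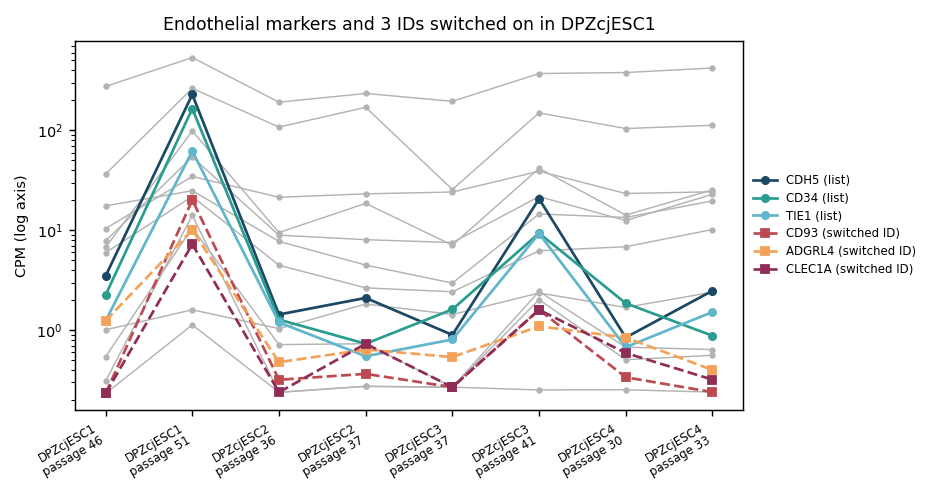
CPM (log axis) in 8 libraries of the endothelial receptors CD93, ADGRL4 and CLEC1A, switched on in DPZcjESC1 (dashed lines), and of 14 endothelial markers (CDH5, CD34 and TIE1 in colour, the others in grey). Values under 3 counts are drawn at 3 counts. The 3 switched genes and most markers have their highest point at passage 51 of DPZcjESC1.

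In DPZcjESC2 3 IDs were on, none of them with a gene name, and 2 were past the limits in all 8 libraries. ENSCJAG00000034178 was at 8.78 and 7.14 CPM in DPZcjESC2, with 0.0776 and 0.283 CPM in DPZcjESC1, 0.180 and 0 CPM in DPZcjESC3 and 0 and 0.0801 CPM in DPZcjESC4. ENSCJAG00000023016 was at 14.4 and 13.2 CPM in DPZcjESC2, with 0.0776 and 0.188 CPM in DPZcjESC1, 0.180 and 0.253 CPM in DPZcjESC3 and 0.676 and 0.721 CPM in DPZcjESC4. The lower library of the line was 25.3-fold and 18.3-fold above the highest other library. Both IDs were thus found in both passages of DPZcjESC2, and elsewhere ENSCJAG00000034178 had at most 3 counts and ENSCJAG00000023016 at most 9. The third ID was at 1.76 CPM at passage 36 and 4.85 CPM at passage 37.

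In DPZcjESC3 4 IDs were on, and for none of them were all libraries of the other lines under 1 CPM. ENSCJAG00000016079, without a gene name, was at 101 CPM at passage 37 and 23.1 CPM at passage 41, with 1.16 and 0.659 CPM in DPZcjESC1, 0.798 and 0.183 CPM in DPZcjESC2 and 1.18 and 0.641 CPM in DPZcjESC4. It had the highest level of all IDs that were on, and the passages differed 4.39-fold. TDRD9, a helicase that acts with piRNAs in germ cells, was at 3.77 and 6.99 CPM in DPZcjESC3, with 0.310 and 1.22 CPM in DPZcjESC1, 0.319 and 1.10 CPM in DPZcjESC2 and 0.169 and 0.961 CPM in DPZcjESC4. TDRD9 was higher at the later passage in all 4 lines. The 5 germline genes found summed to 34.4 and 30.0 CPM in DPZcjESC3 and to 16.8 to 30.1 CPM in the other lines. Of these, PIWIL2 was at 20.3 and 6.15 CPM in DPZcjESC3 and at 1.65 to 4.47 CPM in the other lines. Unlike TDRD9 it was lower at the later passage of DPZcjESC3. DDX4, MAEL, MAGEA4 and TDRD1 were each highest in a library of another line.

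In DPZcjESC4 11 IDs were on, and 7 of them were at 3 CPM or more in both passages. ENSCJAG00000021866 was at 7.86 and 6.09 CPM and between 0 and 0.253 CPM in the other 6 libraries, and ENSCJAG00000019769 was at 3.47 and 3.68 CPM and between 0.0776 and 0.253 CPM. None of those 6 libraries exceeded 3 counts, which makes the lower library of DPZcjESC4 at least 21.5-fold and at least 12.3-fold higher. SERPINB5, the serpin maspin of epithelial cells, was at 7.02 and 3.76 CPM in DPZcjESC4. The other libraries held 0.854 and 0.659 CPM in DPZcjESC1, 0.399 and 0.915 CPM in DPZcjESC2 and 0 and 0.253 CPM in DPZcjESC3. Its mean was 5.39 ± 2.30 CPM (SD, n = 2) against 0.513 ± 0.359 CPM (SD, n = 6), with 4.11-fold between the nearest libraries.

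The other 4 named genes on in DPZcjESC4 reached 3 CPM in 1 passage. MESP1, a transcription factor of the early mesoderm, was at 8.62 CPM at passage 30 and 2.08 CPM at passage 33, with 0.155 and 0.754 CPM in DPZcjESC1, 0.399 and 0.915 CPM in DPZcjESC2 and 0.269 and 0.674 CPM in DPZcjESC3. Both passages were above every other library. The summed level of 6 mesendoderm markers was also highest in these libraries, at 460 CPM at passage 30 and 277 CPM at passage 33, with 43.3 to 235 CPM in the other lines. Of these markers TBXT was at 129 and 36.8 CPM and MIXL1 at 40.0 and 19.9 CPM in DPZcjESC4, against 6.22 to 28.3 CPM and 0.718 to 13.3 CPM elsewhere. The part of differentiating cells in the level of MESP1 was not tested.

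HDC, the enzyme that makes histamine, was at 1.78 and 4.33 CPM in DPZcjESC4, with 0 to 0.698 CPM in the others. NAAA, a lysosomal amidase, was at 2.79 and 3.60 CPM, with 0.233 to 1.04 CPM in the others. KIAA1614 was at 5.24 and 2.16 CPM, with 0.283 to 1.01 CPM in the others. In all 3 genes the lower library of DPZcjESC4 was above the highest library of the other lines, although under 3 CPM.

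The IDs that were off differed from those that were on in 1 respect that the limits bring with them. All 14 passed a filter of at least 10 counts in at least 2 libraries, whereas 38 of the 44 IDs on did, and the 6 that failed were all on in DPZcjESC1. In DPZcjESC1, ENSCJAG00000000065, without a gene name, had 1 count in each of the libraries of the line. It was at 6.62 and 6.04 CPM in DPZcjESC2, 9.87 and 8.25 CPM in DPZcjESC3 and 8.03 and 8.49 CPM in DPZcjESC4, so that the lowest of these was at least 21.4-fold higher than DPZcjESC1 at 3 counts.

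ZNF569, a zinc finger protein of the family of KRAB repressors, was at 0.854 and 0.659 CPM in DPZcjESC1. It was at 11.7 and 11.5 CPM in DPZcjESC2, 10.8 and 12.0 CPM in DPZcjESC3 and 10.1 and 7.85 CPM in DPZcjESC4. The means were 0.757 ± 0.137 CPM (SD, n = 2) and 10.7 ± 1.54 CPM (SD, n = 6), with 9.19-fold between the nearest libraries. The other lines were close to each other, and DPZcjESC1 was low in both passages. ZNF569 belongs to a large family with similar sequences, and its count of unique reads is uncertain for that reason.

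In DPZcjESC2 the ID off in all libraries, ENSCJAG00000021107, was at 0.718 and 0.915 CPM. It was at 3.65 and 5.28 CPM in DPZcjESC1, 7.45 and 7.92 CPM in DPZcjESC3 and 6.43 and 5.05 CPM in DPZcjESC4, with 3.99-fold between the nearest libraries. SEZ6L, a membrane protein of neurons, was at 0.798 and 0.366 CPM in DPZcjESC2 and at 2.71 to 7.50 CPM in the others, without overlap. RBMS3, an RNA-binding protein, was at 1.36 and 0.641 CPM in DPZcjESC2, 1.40 and 5.46 CPM in DPZcjESC1, 1.53 and 4.55 CPM in DPZcjESC3 and 3.81 and 3.20 CPM in DPZcjESC4. For RBMS3 the nearest libraries of the 2 groups were almost level.

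In DPZcjESC3 ENSCJAG00000002364 showed the largest gap of all 58 IDs. It was at 0.359 and 0.0842 CPM in DPZcjESC3, 48.0 and 58.9 CPM in DPZcjESC1, 69.6 and 86.2 CPM in DPZcjESC2 and 26.6 and 29.6 CPM in DPZcjESC4. The lowest of the other libraries was 73.9-fold above the higher library of DPZcjESC3, with means of 53.1 ± 23.2 CPM (SD, n = 6) and 0.222 ± 0.194 CPM (SD, n = 2). The other lines differed among themselves by far less than from DPZcjESC3. ENSCJAG00000011977 was at 0.359 and 0.337 CPM in DPZcjESC3 and at 8.33 to 17.3 CPM in the others, a gap of 23.2-fold.

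HPGD, the enzyme that inactivates prostaglandins, was off in DPZcjESC3 by its means alone. It was at 0.0898 and 1.26 CPM there, 4.73 and 16.8 CPM in DPZcjESC1, 11.9 and 0.732 CPM in DPZcjESC2 and 8.29 and 1.28 CPM in DPZcjESC4. The libraries of DPZcjESC3 overlapped with those of the other lines, and in DPZcjESC2 and DPZcjESC4 1 passage was near 1 CPM.

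SYCE1, a component of the synaptonemal complex of meiotic chromosomes, was the only ID off in DPZcjESC4. It was at 0.846 and 0.481 CPM there, 4.81 and 3.67 CPM in DPZcjESC1, 3.51 and 3.20 CPM in DPZcjESC2 and 3.41 and 3.62 CPM in DPZcjESC3. The mean was 0.663 ± 0.258 CPM (SD, n = 2) against 3.71 ± 0.567 CPM (SD, n = 6), with 3.79-fold between the nearest libraries. The germline list, which does not hold SYCE1, was not low in DPZcjESC4, with 30.1 and 25.5 CPM in sum.

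Several IDs lay at the limits themselves. The lowest value of an ID called on was 3.02 CPM (ENSCJAG00000013925), and the nearest outside was 2.96 CPM (ENSCJAG00000022748). At the lower limit ENSCJAG00000019936 was inside with 0.998 CPM and GPRC5A outside with 1.00 CPM. Of the IDs off, RBMS3 was nearest inside both limits, with 3.04 CPM in one of the other lines and 0.999 CPM in DPZcjESC2. Outside were ENSCJAG00000011469 with 2.83 CPM and MAB21L3 with 1.00 CPM. These distances are far smaller than the counting error.

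Each line was then compared with the other 3 by edgeR's quasi-likelihood test over the 15781 IDs that passed the filter, with at least 2-fold change and a Benjamini-Hochberg adjusted p under 0.05. The comparison uses the values that chose the IDs, and nothing is read from its numbers. It called 17 of the 52 switched IDs tested, and 43 IDs in the 4 fits together (0.0681% of the tests). The excess of calls among the switched IDs is set by the rule. DESeq2 called 38 switched IDs and 292 IDs in all, and the cause of the difference between the tools was not tested.

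The later passages were compared with the earlier ones of the same lines, a contrast that the rule had averaged out. With the line as a block, edgeR called 1 of the 52 switched IDs, or 100 of all 15781 (0.634%). This was ENSCJAG00000001718, on in DPZcjESC3, with a log2 fold change of -2.63 and an adjusted p of 0.049. It was at 6.19 CPM at passage 37 and 0.758 CPM at passage 41 of DPZcjESC3, at 1.47 and 0.283 CPM in DPZcjESC1, 1.12 and 0.275 CPM in DPZcjESC2, and 0.507 and 0.0801 CPM in DPZcjESC4. The earlier passage was higher in all 4 lines, and the call was lost when any library was left out and without the line block.

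Of the 52 IDs tested, 8 had an unadjusted p under 0.05 between passages (15.4%, against 17.2% of all IDs). Their median log2 fold change was -0.02, with 24 higher and 28 lower at the later passage, and the median of all IDs was -0.00. In this fit the switched IDs were thus divided about evenly between both directions. The fit estimates a single passage effect common to all lines. A difference within the switched line alone can hardly be called by it, so that these shares do not show how the passages of that line differ. CD93 had a log2 fold change of 2.69 (adjusted p = 0.34 by edgeR) and MMP10 of 2.25 (adjusted p = 0.209). FGF21, SLITRK3, MAB21L4 and 3 IDs without a gene name, all on in 1 passage of DPZcjESC1, failed the count filter and were not tested.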

How the data were processed

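RNA was sequenced by the authors from 8 libraries, 2 passages of each of 4 marmoset ES cell lines, as single reads of 50 bases of TruSeq libraries (whether counting used strand is not given in the sources used here, so that overlapping genes are uncertain). Per the study's methods, reads were aligned with STAR (2.3.0e, 2 mismatches allowed) to the Ensembl marmoset assembly, filtered for unique hits with SAMtools (0.1.18) and counted on genes with HTSeq (0.6.1p1). The submitters' processing notes also name CASAVA (1.8.2). The deposited values are raw counts per Ensembl ID. Reads assigned to no gene were 29.4 to 32.9% of unique hits, ambiguous ones 0.373 to 0.409%, and both were left out. Groups were taken from the sample labels.

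CPM were computed from the sum of gene counts in Python 3.11.15 with pandas 2.3.3, numpy 2.4.6 and scipy 1.17.1, and figures were drawn with matplotlib 3.10.9. Counts were modelled by edgeR 4.0.16 under R 4.3.3 (TMM, quasi-likelihood test, Benjamini-Hochberg adjustment) for the 15781 of 32338 IDs that reached 10 counts in 2 or more libraries. edgeR was tested on simulated data with 200 IDs of 15781 changed by 2 on the log2 scale. It recovered 86.0% for one line against the other 3, with 8 false calls, and 90.5% for later against earlier passages, with 7. The changed IDs were drawn only from those above a minimum mean count, so that these shares do not describe IDs near the limits. Alternatives were DESeq2 (1.42.0), other scalings, filters, limits and blocks, and leaving out each library.

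The members, the lists and the tests were chosen with earlier results of these data known. IDs past the limits in all 8 libraries were ranked by the gap between the nearest libraries of the 2 groups, and per line and direction the first 2 of those without a gene name and the first 4 of those with one were named. Values under 3 counts (0.233 to 0.283 CPM) were set to 3 counts for gaps. All other genes were named after their values had been seen, apart from those nearest the limits. Marker lists were pluripotency, fibroblast or feeder, mesendoderm, neuroectoderm, trophoblast, imprinted and germline genes, and, added after the members were seen, endothelial and stratified epithelial genes. None of the list genes is a member. Gene names came from a table of IDs and symbols and neighbours from RefSeq. No sequences or positions of the authors' assembly were used here. One switched gene is not reported here and is left out of the figures.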

Additional observations from a re-analysis of the deposited data

Results flagged for a closer look

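In 23 groups of libraries examined for a single library far from the others by Dixon's criterion, 4 exceeded the 95% limit. The nominal rate of about 1 in 20 would give 1.15. That rate assumes independent libraries and values not chosen beforehand. Here libraries share lines, the rule bounded the values of switched IDs, and 1 list was made after seeing them. No conclusion is therefore drawn from 4 against 1.15. The summed level of the neuroectoderm markers was 1137 CPM at passage 46 of DPZcjESC1, with 607 CPM in the next library. Nearly all of it came from NES, and MAP2 (3.41 CPM), OTX2 (6.91 CPM) and PAX6 (1.47 CPM) were low in that library. The summed level of the endothelial markers, a list drawn up after the switched IDs had been seen, was 1515 CPM at passage 51 of DPZcjESC1, with 689 CPM in the next. ENSCJAG00000021866, on in DPZcjESC4, was at 0.253 CPM at passage 41 of DPZcjESC3, which is 3 counts, and at most at 0.0942 CPM in the other 5 libraries of lines without it. SYCE1, off in DPZcjESC4, was at 4.81 CPM at passage 46 of DPZcjESC1, with 3.67 CPM in the next library of the other lines.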

How the results depend on the processing

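The limits of 1 and 3 CPM stand for few counts, and the number of switched IDs depended on how they were set. Scaling had little effect, with 61 IDs under TMM and 60 under DESeq2's size factors instead of 58 (56 shared in both), and all 35 line means of named genes examined moved by less than 1 SD. Requiring every library to be past its limit left 19 IDs (12 on, 7 off). An off limit of 0.5 CPM left 19 (15 on, 4 off), an on limit of 5 CPM left 26 (19 on, 7 off) and of 10 CPM left 7 (6 on, 1 off). The earlier passages alone gave 36 IDs off and the later ones 27, instead of 14. Leaving out 1 library in turn gave 57 to 84 IDs, 38 to 53 on and 15 to 40 off. The number off rose over 1.5-fold without passage 46 (25) or 51 (40) of DPZcjESC1, passage 36 of DPZcjESC2 (23) or passage 41 of DPZcjESC3 (31), where the line then rests on its other library. For one line against the other 3, DESeq2 called 292 IDs and 38 of the switched ones, and a contrast of line means 83 IDs (edgeR 43 and 17). Without 1 library these were 15 to 537 and 7 to 18. For later against earlier passages, the 100 calls (1 switched ID) became 366 (3) without a filter and 547 (3) by DESeq2, the switched call was 0 with edgeR's own filter and without the line block, and without 1 library the calls were 0 to 105 and 0 to 0, with 0 calls without any library of DPZcjESC2 or DPZcjESC3. Passages are numbered within a line only, and the labels pair no libraries between lines. With the order of the passages as a block, 40 IDs and 17 switched ones were called. Passage agreement, single-library patterns, folds between passages and the added marker lists were chosen after seeing the data. The causes of these changes were not tested beyond the fewer libraries or IDs that a setting leaves.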

Other observations

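Some genes of the marker lists differed between the earlier and the later library of the lines. This order holds within a line only, since passage 37 is the later one of DPZcjESC2 and the earlier one of DPZcjESC3. Of the pluripotency markers, 6 of 10 were higher at the later passage in all 4 lines (17.4% of all IDs tested were), and edgeR called 2 of the 9 tested, KLF4 and NANOG (0.634% of all IDs were called). NANOG was at 34.9 and 148 CPM at the earlier and later passage of DPZcjESC1, 39.6 and 151 CPM in DPZcjESC2, 41.0 and 164 CPM in DPZcjESC3 and 56.1 and 112 CPM in DPZcjESC4, a log2 fold change of 1.68 (adjusted p = 0.0375 by edgeR, higher in 4 of 4 lines). KLF4, a transcription factor of the undifferentiated state, was at 12.3 and 108 CPM, 12.1 and 61.1 CPM, 15.9 and 86.1 CPM, and 25.5 and 76.6 CPM, a log2 fold change of 2.30 (adjusted p = 0.0375). POU5F1 differed little, with a log2 fold change of 0.12 (adjusted p = 0.666).

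The 3 trophoblast markers found were lower at the later passage in all 4 lines (10.9% of all IDs tested were), and 1 of them was called. TFAP2A, a transcription factor of trophoblast and surface ectoderm, was at 31.2 and 2.45 CPM in DPZcjESC1, 69.2 and 5.58 CPM in DPZcjESC2, 22.9 and 1.09 CPM in DPZcjESC3 and 15.5 and 3.44 CPM in DPZcjESC4, a log2 fold change of -3.48 (adjusted p = 0.0375). The summed level of the list was 58.4 to 134 CPM in the earlier and 5.84 to 39.4 CPM in the later libraries, without overlap. None of the tested genes of the fibroblast, mesendoderm, neuroectoderm, imprinted, germline, endothelial or stratified epithelial lists was called in this comparison (0 of 6, 6, 4, 7, 4, 13 and 6). At an unadjusted p under 0.05 the same lists had 1, 0, 1, 3, 2, 7 and 4 genes, and DESeq2 called 0, 0, 1, 0, 0, 3 and 2 genes. The 7 imprinted genes summed to 1826 to 3911 CPM over the libraries. All calls of this comparison are lost without any library of DPZcjESC2 or DPZcjESC3, and what else separated the earlier from the later cultures is not given in the labels.

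ENSCJAG00000000065, off in DPZcjESC1, and ENSCJAG00000031963, on in DPZcjESC4, had the same counts in both libraries of DPZcjESC4, 95 and 106. In the other 6 libraries they differed, with 1, 1, 83, 66, 110 and 98 counts for the first and 10, 9, 3, 0, 0 and 4 for the other, in the order of lines and passages.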
